A study of Homo sapiens with 54 samples.

Results

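Glycolysis and the response to low oxygen were followed in OCI-Ly1 cells, an established human B cell lymphoma line, by the mRNA levels of 36 genes. The genes were chosen by name as enzymes and transporters of glycolysis and as hypoxia response genes, with no measured value in the rule, and all 36 were found among the 31835 gene identifiers of the count table. Earlier results of these data were known when they were chosen, so that counts of called genes may not be independent of them. The cells had been stably transduced with a construct in which the CMV promoter drives Flag-tagged STAT6, either wild type (STAT6 WT) or with the substitution D419G, D419N or N421K in the DNA binding domain (together STAT6 MUT), followed by an IRES and the green fluorescent protein ZsGreen. OCI-Ly1 cells also carry a STAT6 variant of their own, so that every group shares it. All groups received human IL-4 at 10 ng/ml for 20 min, were washed, and were then kept without IL-4 until RNA was taken after 2, 4 or 8 h. At each time point there were 9 STAT6 WT libraries and 9 STAT6 MUT libraries, the latter being 3 each of D419G, D419N and N421K, which gives 54 libraries. No library came from cells without IL-4, so that none of the values below is a response to IL-4 measured against unstimulated cells. The 3 time points lay in different rows of the plate, and time after IL-4, time after washing and replating, and plate row cannot be told apart. The labels call the numbered libraries of a group biological replicates but do not tell at which step (transduction, culture or stimulation) they were separate, so that p-values measure the spread between these libraries. The sources used here do not state how many separate transductions were made per construct, and STAT6 variant and transduced population cannot be told apart.

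In glycolysis, glucose enters through transporters such as SLC2A1 and is phosphorylated by hexokinases, split by aldolase into triose phosphates, and carried by the lower enzymes to pyruvate, which lactate dehydrogenase reduces to lactate. HIF-1, a dimer that contains the HIF1A protein, raises the transcription of most of these enzymes when oxygen is low, together with genes of mitophagy (BNIP3, BNIP3L), pyruvate use (PDK1) and collagen maturation (P4HA1). With oxygen, prolyl hydroxylases of the EGLN family mark HIF1A for destruction, so that the activity of HIF-1 is set mainly at the protein and not at the mRNA. In B cells, the pathway supports activation and proliferation, and STAT6 is the transcription factor that IL-4 activates.

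HIF-1 binds DNA at the hypoxia response element, whose core is written ACGTG or GCGTG. A RefSeq promoter window of 300 bases, 250 before to 50 after the gene start, was matched for 31 of the 36 genes, and BNIP3L, NDRG1, SLC16A1, SLC2A3 and VEGFA had no entry. The windows below belong to the 3 genes with the smallest p for the difference between STAT6 MUT and STAT6 WT and to BNIP3, and all 4 genes were lower at 8 h than at 2 h and higher in STAT6 MUT. They are given 5′ to 3′ on the strand of the gene, on GRCh38.p14, with every ACGTG or GCGTG core on either strand in capitals (CACGT and CACGC are the cores of the opposite strand, and CACGTG holds ACGTG on both strands). The window of ALDOC is chr17:28576846-28577145 on the minus strand, that of ENO1 is chr1:8878637-8878936 on the minus strand, that of PGK1 is chrX:78103998-78104297 on the plus strand, and that of BNIP3 is chr10:131981874-131982173 on the minus strand.
ALDOC: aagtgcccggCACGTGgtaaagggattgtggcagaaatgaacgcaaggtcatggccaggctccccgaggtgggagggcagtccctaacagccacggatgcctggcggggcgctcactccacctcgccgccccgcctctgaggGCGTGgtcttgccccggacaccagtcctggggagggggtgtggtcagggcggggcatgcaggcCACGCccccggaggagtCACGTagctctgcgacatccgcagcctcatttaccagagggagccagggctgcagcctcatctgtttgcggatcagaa
ENO1: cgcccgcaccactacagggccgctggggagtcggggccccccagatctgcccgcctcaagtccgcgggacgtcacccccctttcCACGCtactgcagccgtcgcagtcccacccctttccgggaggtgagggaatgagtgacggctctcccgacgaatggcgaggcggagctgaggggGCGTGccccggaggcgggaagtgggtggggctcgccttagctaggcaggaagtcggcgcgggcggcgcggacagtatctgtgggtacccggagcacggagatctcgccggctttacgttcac
PGK1: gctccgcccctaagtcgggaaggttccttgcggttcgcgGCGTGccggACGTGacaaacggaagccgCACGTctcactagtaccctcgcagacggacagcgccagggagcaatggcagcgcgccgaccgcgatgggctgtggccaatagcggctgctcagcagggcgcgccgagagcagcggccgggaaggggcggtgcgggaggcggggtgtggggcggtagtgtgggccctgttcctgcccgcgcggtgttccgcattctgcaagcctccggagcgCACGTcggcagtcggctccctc
BNIP3: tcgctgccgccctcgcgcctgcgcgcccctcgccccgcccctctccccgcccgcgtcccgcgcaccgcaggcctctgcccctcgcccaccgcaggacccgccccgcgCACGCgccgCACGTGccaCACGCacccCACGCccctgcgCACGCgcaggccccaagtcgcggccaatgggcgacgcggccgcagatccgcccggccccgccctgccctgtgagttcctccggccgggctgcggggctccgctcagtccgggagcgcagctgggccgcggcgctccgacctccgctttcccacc

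ALDOC, PGK1 and BNIP3 held both forms of the core, and ENO1 held GCGTG without ACGTG. On both strands, ACGTG was found in 14 of the 31 windows (45.2%), against 29.0% of the windows of all genes tested in the 54 libraries that had one and 21.6% of all 27305 windows. GCGTG was found in 15 of 31 (48.4%), against 53.9% and 36.3%, and either core in 23 of 31 (74.2%), against 66.8% and 48.4%. CACGTG, the E-box of MYC and related factors, which overlaps ACGTG, was found in 5 of 31 (16.1%), against 11.3% and 7.43%. TTC followed after any 4 bases by GAA, the spacing that STAT6 prefers, was found in 0 of 31 windows, against 4.69% and 6.37%. These are matches of letters within 300 bases and not measured binding sites.

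The libraries held 161518 to 2978715 UMIs (unique molecular identifiers, 1 per captured mRNA molecule), with a median of 885258.5, and 8 libraries (6 STAT6 MUT, 2 STAT6 WT) held less than 0.5 of that median. The label of a B cell line was checked against markers. All 10 B cell markers were measured, with a summed level of 3253 to 4370.5 CPM (UMIs per 1e6 UMIs of the library) over all libraries. Of 6 T cell markers and 6 myeloid markers none passed the filter on low counts, and their summed levels were 0 to 4.59 CPM and 0 to 2.50 CPM. Of 8 stromal and epithelial markers 1 passed, EPCAM, which differed between the lines (below). The 36 genes together made up 1.62% of the UMIs of a STAT6 WT library at 2 h (median), which became 1.52% at 4 h and 1.39% at 8 h. The STAT6 MUT medians were 1.76%, 1.63% and 1.53%. Levels below are CPM after TMM scaling, a scaling of library totals that assumes that most genes do not change.

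Of the 36 genes, 29 passed the filter on low counts in the comparisons over all libraries. The 7 that did not were SLC2A3, a glucose transporter, ENO2, the neuronal enolase, EGLN3, a HIF prolyl hydroxylase, and the hypoxia-induced genes VEGFA, ANKRD37, NDRG1 and ADM. EGLN3 had 1 UMI in the 54 libraries together, SLC2A3 had 28, ADM 59, NDRG1 87, ANKRD37 128, ENO2 153 and VEGFA 280. Without the filter, VEGFA, the angiogenic growth factor, was lower at 8 h than at 2 h (log2 fold change −0.88 ± 0.24 SE, adjusted p = 0.00296, edgeR), and the other 6 had adjusted p of 0.11 or more for that comparison. None of the 7 passed for STAT6 MUT against STAT6 WT over all time points (adjusted p of 0.577 or more).

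Most of the tested genes of this set fell between 2 and 8 h in both genotypes. In the model of time point and genotype, 22 of the 29 tested genes differed between 8 and 2 h at an adjusted p under 0.05, 3 higher and 19 lower, whereas 46.3% of all genes tested differed, 22.7% higher and 23.6% lower. The median log2 fold change of the 29 genes was −0.29, against −0.0046 over all genes. In bulk RNA, fewer cells that express a gene and less of its RNA per cell cannot be told apart. The largest falls were those of the mitophagy receptors BNIP3L and BNIP3, of PFKFB4, which makes and breaks down the regulator fructose 2,6-bisphosphate, and of PDK1, the kinase that restrains the use of pyruvate in mitochondria. PFKFB3, SLC2A1 and HK2 rose.

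**Figure D1:**
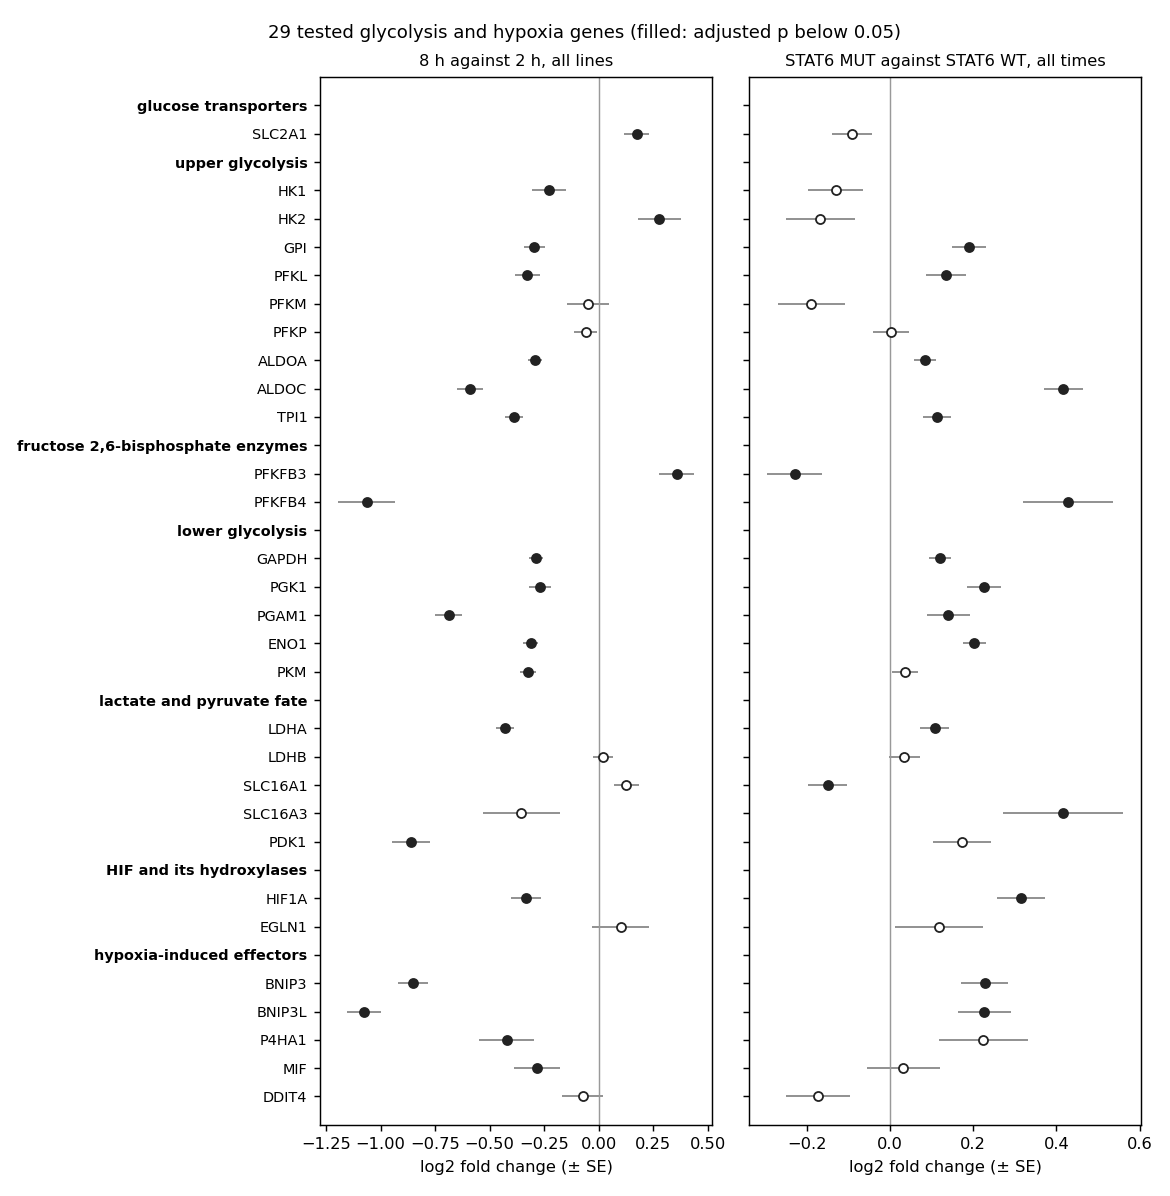
Log2 fold change ± SE of the 29 tested genes, ordered by role, for 8 h against 2 h (left) and STAT6 MUT against STAT6 WT over all time points (right), from edgeR's quasi-likelihood fit, with filled points where the adjusted p was under 0.05 and separate scales in the panels. On the left 19 filled points lie below 0 and 3 above it, and on the right 15 lie above 0 and 2 below it.

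BNIP3L stood at 51.2 to 102 CPM (median 76.2) in the 18 libraries of 2 h, at 22.5 to 79.5 CPM (median 58.9) at 4 h and at 24.2 to 48.9 CPM (median 37.1) at 8 h. All libraries of 8 h lay below all of 2 h. The fitted change at 8 h was a log2 fold change of −1.08 ± 0.08 (SE, n = 18 against 18, adjusted p = 1.36e-20, edgeR), 0.474-fold. BNIP3, its relative, went from 93.0 to 169.8 CPM (median 127) at 2 h to 47.0 to 125 CPM (median 67.2) at 8 h, which is −0.85 ± 0.07 on the log2 scale (adjusted p = 2.73e-18, edgeR). In STAT6 WT all 9 libraries of 8 h lay below all of 2 h for BNIP3, and in STAT6 MUT 8 of 9 did.

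PGAM1, the phosphoglycerate mutase, had 104 to 163 CPM (median 133) at 2 h and 35.3 to 98.1 CPM (median 76.8) at 8 h, with no overlap (log2 fold change −0.69 ± 0.06, adjusted p = 6.38e-16, edgeR). PDK1 had 34.2 to 77.3 CPM (median 54.2) at 2 h and 11.2 to 46.3 CPM (median 31.0) at 8 h (log2 fold change −0.86 ± 0.09, adjusted p = 3.19e-14, edgeR). The PDK1 ranges overlapped in part: 9 of 9 STAT6 MUT libraries and 6 of 9 STAT6 WT libraries of 8 h lay below every 2 h library of their genotype. ALDOC, the aldolase of brain that HIF-1 also induces, had 192 to 322 CPM (median 244) at 2 h and 117 to 231 CPM (median 155) at 8 h (log2 fold change −0.59 ± 0.06, adjusted p = 3.19e-14, edgeR). LDHA, the lactate dehydrogenase subunit of anaerobic tissues, had 1333 to 1923 CPM (median 1503) at 2 h and 903 to 1453 CPM (median 1085) at 8 h (log2 fold change −0.43 ± 0.04, adjusted p = 3.19e-14, edgeR). For ALDOC and LDHA the pooled ranges of both time points overlapped, and all 9 STAT6 WT libraries of 8 h lay below all of 2 h, as did 6 of 9 STAT6 MUT libraries for ALDOC and 8 of 9 for LDHA.

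**Figure D2:**
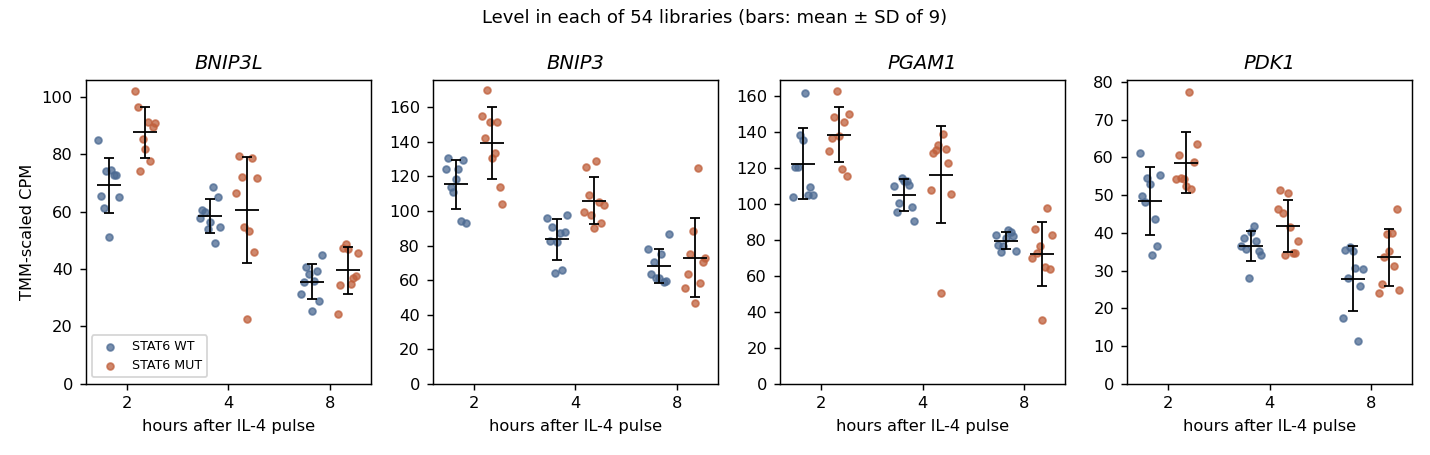
Level (TMM-scaled CPM, linear axis from 0) of BNIP3L, BNIP3, PGAM1 and PDK1 in each library at 2, 4 and 8 h after the IL-4 pulse, STAT6 WT in blue and STAT6 MUT in orange, with bars for the mean ± SD of 9 libraries. The medians of all 4 genes step down at each time point, for BNIP3L from 76.2 to 58.9 to 37.1 CPM.

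By role, the fall took in the whole lower part of glycolysis and most of the upper part. All 5 tested lower enzymes fell: PGAM1 as above, PKM (−0.32), ENO1 (−0.31), GAPDH (−0.29) and PGK1 (−0.27), all as log2 fold changes. These are the steps from glyceraldehyde 3-phosphate to pyruvate. For GAPDH, ENO1 and PKM, as for PGAM1 and the aldolase ALDOA, all 9 libraries of 8 h lay below all 9 of 2 h in either genotype. How many of all genes tested lay apart in this way was not counted. Of the 9 upper enzymes 6 fell, namely ALDOC, the triose phosphate isomerase TPI1 (−0.39), the liver phosphofructokinase PFKL (−0.33), the glucose phosphate isomerase GPI (−0.29), ALDOA (−0.29) and the hexokinase HK1 (−0.23). The hexokinase HK2 rose, and the muscle and platelet phosphofructokinases PFKM (−0.05) and PFKP (−0.06) did not pass. Of the 5 genes of lactate and pyruvate fate PDK1 and LDHA fell. The lactate exporter SLC16A1 was nearest to the threshold (0.13 ± 0.06, adjusted p = 0.0526, edgeR), and the exporter SLC16A3 (−0.36) and the heart-type subunit LDHB (0.02) did not pass. HIF1A mRNA fell (−0.33 ± 0.07, adjusted p = 3.85e-05, edgeR), and EGLN1, the main HIF prolyl hydroxylase, did not pass (0.10). Of the 5 tested hypoxia-induced effectors 4 fell, which besides BNIP3 and BNIP3L were the collagen prolyl hydroxylase P4HA1 (−0.42) and the cytokine MIF (−0.28), and the mTORC1 inhibitor DDIT4 did not pass (−0.07).

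The fructose 2,6-bisphosphate enzymes moved in opposite directions. PFKFB4 went from 11.9 to 35.3 CPM (median 18.6) at 2 h to 3.95 to 23.5 CPM (median 10.5) at 8 h, on 2 to 68 UMIs per library (log2 fold change −1.06 ± 0.13, adjusted p = 9.88e-11, edgeR). PFKFB3, the isoform with the strongest kinase activity, went from 46.2 to 111 CPM (median 64.7) to 47.0 to 99.6 CPM (median 87.5), or 0.36 ± 0.08 on the log2 scale (adjusted p = 0.000129, edgeR). The PFKFB3 ranges overlapped. SLC2A1, the glucose transporter of most dividing cells, went from 88.8 to 173 CPM (median 125) to 108 to 176 CPM (median 143), or 0.18 ± 0.06 on the log2 scale (adjusted p = 0.00965, edgeR). HK2, the inducible hexokinase, went from 12.4 to 33.1 CPM (median 21.7) to 10.9 to 45.0 CPM (median 28.5), or 0.28 ± 0.10 on the log2 scale (adjusted p = 0.0151, edgeR).

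**Figure D3:**
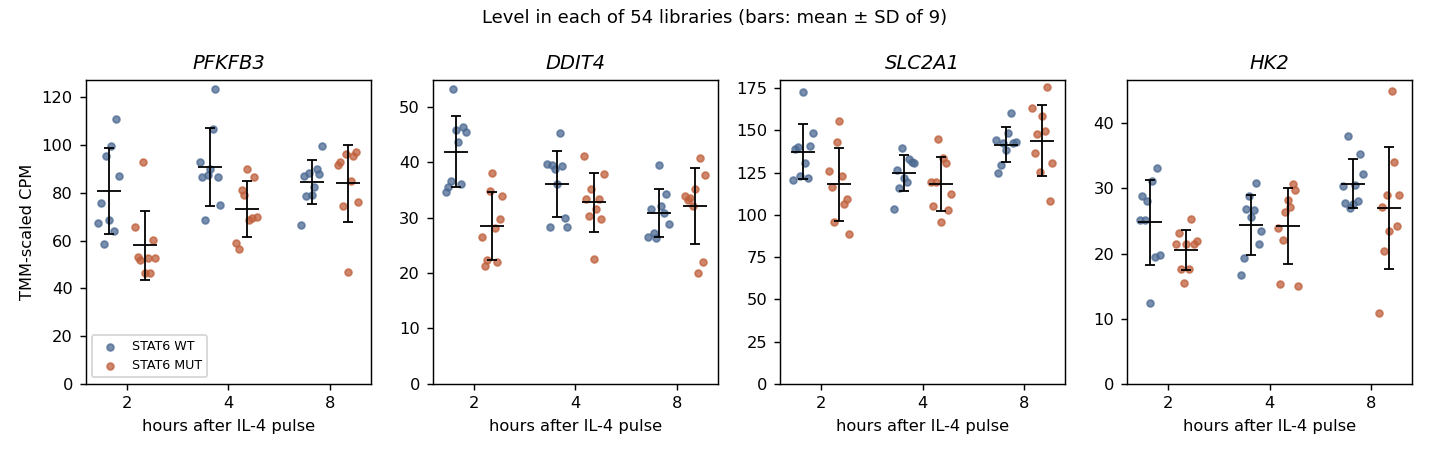
Level (TMM-scaled CPM, linear axis from 0) of PFKFB3, DDIT4, SLC2A1 and HK2 in each library at 2, 4 and 8 h after the IL-4 pulse, STAT6 WT in blue and STAT6 MUT in orange, with bars for the mean ± SD of 9 libraries. At 2 h the STAT6 MUT median lies below the STAT6 WT median for PFKFB3 (52.7 against 75.9 CPM) and DDIT4 (28.1 against 43.6 CPM), with ranges that overlap.

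The calls of P4HA1, SLC2A1, HK1, HK2 and MIF were lost in at least 1 of the 19 alternative settings, and the other 17 were kept in all of them. When libraries were scaled by total counts alone, the genes called over the whole table divided into 2668 higher and 1694 lower in place of 2101 higher and 2189 lower, and 4 of the 29 genes were then higher and 17 lower.

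The fall was spread over both intervals. From 2 to 4 h, 20 of 29 genes differed, 2 higher and 18 lower (22.0% of all genes tested, 11.6% higher and 10.4% lower), and from 4 to 8 h 14 differed, 1 higher and 13 lower (18.0% of all genes tested, 8.88% higher and 9.12% lower). BNIP3, PDK1, LDHA, TPI1, ENO1, GAPDH, PKM, ALDOC, ALDOA, PGAM1, PFKL, PGK1 and BNIP3L fell in both. HIF1A (−0.40 ± 0.07, adjusted p = 6.45e-06, edgeR) and PFKFB4 (−0.67 ± 0.13, adjusted p = 2.06e-05, edgeR) passed for the first interval, and for the second PFKFB4 was nearest to the threshold (−0.39 ± 0.15, adjusted p = 0.0567, edgeR). HK1, GPI and P4HA1 also fell from 2 to 4 h, while PFKFB3 (0.32 ± 0.08, adjusted p = 0.00174, edgeR) and EGLN1 (0.39 ± 0.13, adjusted p = 0.0195, edgeR) rose. SLC2A1 was the riser from 4 to 8 h (0.20 ± 0.06, adjusted p = 0.0105, edgeR). Without replicate number 1 or without number 3, 13 of the 29 genes differed from 2 to 4 h in place of 20.

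Within STAT6 WT, 17 of 29 genes differed between 8 and 2 h, 0 higher and 17 lower (27.6% of all genes tested, 14.3% higher and 13.3% lower). Within STAT6 MUT, 23 differed, 4 higher and 19 lower (33.8% of all genes tested, 16.7% higher and 17.1% lower). BNIP3L fell by 1.01 on the log2 scale in STAT6 WT and by 1.13 in STAT6 MUT, BNIP3 by 0.74 and 0.97, PGAM1 by 0.56 and 0.82, and PFKFB4 by 1.28 and 0.85. PFKFB3 rose within STAT6 MUT (0.66 ± 0.11, adjusted p = 1.82e-06, edgeR), and so did SLC2A1 (0.32), SLC16A1 (0.22) and DDIT4 (0.33 ± 0.13, adjusted p = 0.0423, edgeR). DDIT4 fell within STAT6 WT (−0.36 ± 0.11, adjusted p = 0.0116, edgeR). The difference between the genotypes' time courses is tested below.

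Neighbouring pathways gave a mixed picture for 8 h against 2 h, where 46.3% of all genes tested differed, 22.7% higher and 23.6% lower. The counts of the lists were not tested against these shares. Of 23 tested genes of a list of other hypoxia-induced genes, 5 rose and 9 fell, with a median log2 fold change of −0.08, and the falls included the carbonic anhydrase CA9 (−2.10 ± 0.13) and FAM162A (−0.87 ± 0.05). Of 13 other genes of glycolysis and glucose uptake 4 rose and 3 fell, with TIGAR, which lowers fructose 2,6-bisphosphate, at −0.95 ± 0.09 and PGAM5, a mitochondrial phosphatase despite its name, at 0.20 ± 0.05. Of 7 genes of the pentose phosphate pathway 2 rose, RPE (0.39) and RPIA (0.17), and 1 fell, PGLS (−0.16). Of 10 genes of pyruvate entry to mitochondria 1 rose and 2 fell, PDP2 (−0.50) and PDK3 (−0.46). Of 6 other HIF regulators EGLN2 rose (0.36), and the coactivators EP300 (−0.36) and CREBBP (−0.44) and the ubiquitin ligase component VHL (−0.31) fell.

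Genes of other programs were also called for 8 h against 2 h, beside the same 46.3% of all genes tested. Their counts were likewise not tested against that share. Of 11 tested genes of the amino acid and integrated stress response 0 rose and 5 fell, among them SHMT2 (−0.63) and ATF4 (−0.48). Of 6 genes of MYC and its partners MYC rose (0.44) and MXD3 fell (−0.51). Of 3 glucose-sensing MondoA genes MLX rose (0.25). Of 8 heat shock genes 7 rose and 0 fell, with HSPA8 at 1.14 ± 0.04 and HSPH1 at 1.04 ± 0.06, and the summed heat shock level rose from 4817 to 6004 CPM over the libraries of 2 h to 6953 to 8679 CPM over those of 8 h. Of 11 housekeeping genes without glycolytic enzymes 3 rose and 3 fell, with a median log2 fold change of −0.01 and PPIA (−0.30) and HPRT1 (−0.36) as the clearest. Of the 10 B cell markers 7 rose and 2 fell, with BCL6 at −0.94 and CD22 at 0.44. Whether the heat shock or B cell genes have a part in the fall of the glycolytic genes was not tested.

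Many of these mRNAs were higher in STAT6 MUT than in STAT6 WT. Over all time points, 17 of the 29 genes differed, 15 higher and 2 lower in STAT6 MUT, whereas 13.4% of all genes tested differed, 6.74% higher and 6.62% lower. The median log2 fold change was 0.12 for the 29 genes and 0.0012 over all genes. The changes were small, at most 0.43 on the log2 scale. The 6 clearest genes were ALDOC, ENO1, PGK1, HIF1A, GAPDH and GPI.

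At 2 h ALDOC had 192 to 293 CPM (median 203) in STAT6 WT and 215 to 322 CPM (median 294) in STAT6 MUT. At 4 h the values were 169.7 to 215 CPM (median 191) and 193 to 327 CPM (median 256), and at 8 h 117 to 156 CPM (median 132) and 143 to 231 CPM (median 194). Above every STAT6 WT library of the same time lay 5, 7 and 7 of the 9 STAT6 MUT libraries at the successive time points. For this and the genes below, the share of all genes tested with such gaps was not counted. Two-sided exact permutation tests, run on log2 CPM at each time, gave p = 0.00123, 0.000576 and 0.000411, among 108 such tests of 36 genes at 3 time points that were not adjusted for their number. The fitted difference was 0.42 ± 0.05 on the log2 scale (n = 27 against 27, adjusted p = 3.58e-11, edgeR).

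ENO1, the enolase of most tissues, had 2116 to 2335 CPM (median 2235) in STAT6 WT at 2 h and 2498 to 3148 CPM (median 2585) in STAT6 MUT, so that all 9 mutant libraries lay above all 9 others. This is the smallest p an exact permutation test of 9 against 9 can give (p = 4.11e-05). At 4 h the ranges were 1925 to 2187 CPM (median 2110.2) and 2143 to 2444 CPM (median 2333; exact permutation p = 0.000165), and at 8 h 1613 to 1955 CPM (median 1834) and 1748 to 2392 CPM (median 2165; exact permutation p = 0.00267). At these later times 8 and 7 mutant libraries exceeded every STAT6 WT library. The fitted difference was 0.20 ± 0.03 (adjusted p = 1.72e-08, edgeR), a 1.15-fold level.

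PGK1, the phosphoglycerate kinase, had 712 to 875 CPM (median 792) in STAT6 WT and 805 to 1105 CPM (median 874) in STAT6 MUT at 2 h. At 4 h it had 667 to 816 CPM (median 715) and 721 to 1036 CPM (median 786), and at 8 h 534 to 749 CPM (median 618) and 622 to 1081 CPM (median 768). The ranges overlapped at each time point, with 4, 4 and 5 mutant libraries above every STAT6 WT library (exact permutation p = 0.0136, 0.00329 and 0.00313). The fitted difference was 0.23 ± 0.04 (adjusted p = 1.13e-05, edgeR). HIF1A had 46.7 to 81.1 CPM (median 69.6) and 75.7 to 96.9 CPM (median 84.4) at 2 h, 35.1 to 63.1 CPM (median 54.6) and 50.7 to 73.5 CPM (median 67.7) at 4 h, and 42.1 to 73.4 CPM (median 54.2) and 53.2 to 99.9 CPM (median 69.9) at 8 h, in STAT6 WT and STAT6 MUT respectively. Here 6, 7 and 3 mutant libraries lay above every STAT6 WT library (exact permutation p = 0.000247, 0.00354 and 0.0226), and the fitted difference was 0.31 ± 0.06 (adjusted p = 2.03e-05, edgeR).

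For GAPDH, the medians in STAT6 WT and STAT6 MUT were 5439 and 6021 CPM at 2 h, 5192 and 5486 CPM at 4 h and 4638 and 4804 CPM at 8 h (log2 fold change 0.12 ± 0.03, adjusted p = 0.00034, edgeR). For GPI they were 359 and 417 CPM, 323 and 361 CPM, and 289 and 325 CPM (log2 fold change 0.19 ± 0.04, adjusted p = 0.000364, edgeR). GAPDH is widely used as a reference gene, and here both its time and its genotype comparison passed.

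**Figure D4:**
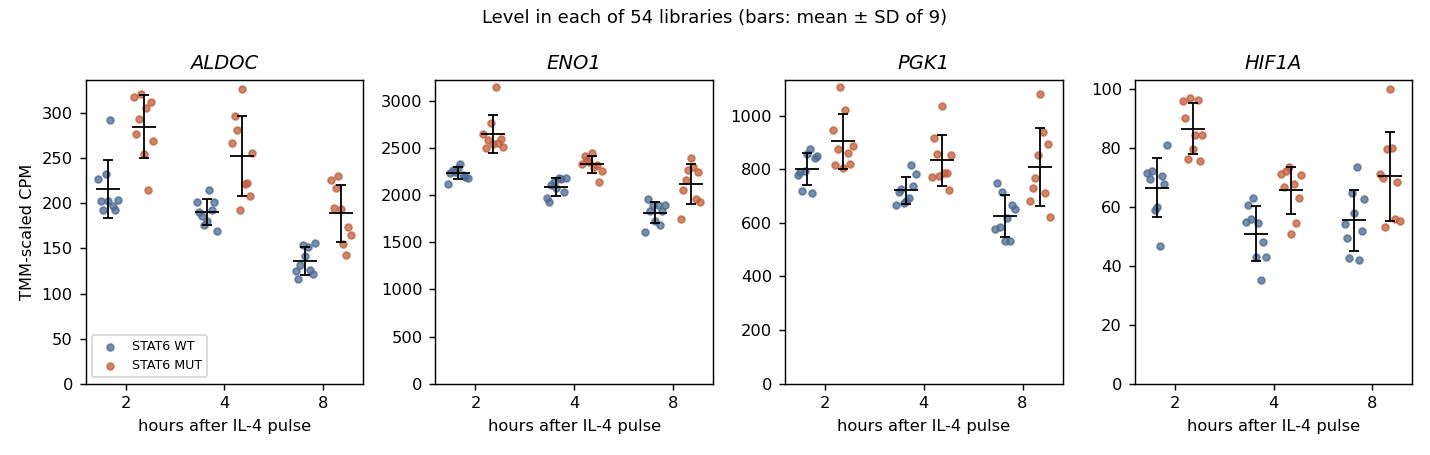
Level (TMM-scaled CPM, linear axis from 0) of ALDOC, ENO1, PGK1 and HIF1A in each library at 2, 4 and 8 h after the IL-4 pulse, STAT6 WT in blue and STAT6 MUT in orange, with bars for the mean ± SD of 9 libraries. In ENO1 all 9 STAT6 MUT libraries of 2 h lie above all STAT6 WT libraries, and in the other 3 genes the groups overlap at 2 h.

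By role, 5 of 9 upper enzymes were higher in STAT6 MUT and 0 lower: ALDOC, GPI, PFKL (0.14), TPI1 (0.11) and ALDOA (0.08). Of 5 lower enzymes 4 were higher, ENO1, PGK1, PGAM1 (0.14) and GAPDH, and PKM did not pass (0.04). Of the 5 genes of lactate and pyruvate fate LDHA (0.11) and SLC16A3 (0.42) were higher and SLC16A1 was lower (−0.15). PFKFB4 was higher (0.43 ± 0.11, adjusted p = 0.00253, edgeR) and PFKFB3 lower (−0.23 ± 0.07, adjusted p = 0.00964, edgeR), the reverse of their changes with time. BNIP3 (0.23) and BNIP3L (0.23) were higher, and P4HA1 (0.22), MIF (0.03) and DDIT4 (−0.17) did not pass. PDK1 was nearest to the threshold (0.17 ± 0.07, adjusted p = 0.0913, edgeR), and SLC2A1 (−0.09), HK1 (−0.13), HK2 (−0.17), PFKM (−0.19), PFKP (0.0030), LDHB (0.03) and EGLN1 (0.12) did not pass.

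The libraries of low total moved with this comparison. At each time point 2 of the 9 STAT6 MUT libraries had under 0.5 of the median total, and the 36 genes made up a larger share of their UMIs (1.88 and 1.98% at 2 h, and 1.71 and 1.72% at both later times) than of those of any other STAT6 MUT library of that time (up to 1.80%, 1.70% and 1.63%). The STAT6 WT libraries of low total, 1 at 2 h and 1 at 8 h, lay within the range of the others. They had 1.73% at 2 h (others 1.52 to 1.75%) and 1.32% at 8 h (others 1.28 to 1.44%). At 2 h the only higher STAT6 WT share was that of replicate 3, which had 594081 UMIs. Whether the share depends on depth in STAT6 WT was not tested. The highest STAT6 MUT value of ENO1 and of PGK1 came from such a library at all 3 time points, that of HIF1A at 2 and 8 h, and that of ALDOC at 2 and 4 h. Without the 8 libraries of low total 13 genes were called, 11 higher and 2 lower, and the log2 fold changes were 0.40 for ALDOC, 0.17 for ENO1, 0.16 for PGK1, 0.29 for HIF1A, 0.10 for GAPDH and 0.15 for GPI, all 6 still called, while TPI1, ALDOA, LDHA and SLC16A3 lost their calls.

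ALDOC, ENO1, PGK1, HIF1A and GPI kept their calls in all 22 alternative settings, and the other 12 calls were lost in at least 1. With no count filter 9 of the 36 genes were called, without the N421K line 11 of the 29, and without replicate number 2 10. With replicate number as a block the count was lower than in each of these settings, as given at the end. PFKL and PGAM1, at adjusted p = 0.0458 and 0.0494 (edgeR), lost their calls in 15 and 16 settings.

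The related lists stand beside the 13.4% of all genes tested that differed, 6.74% higher and 6.62% lower, and were not tested against it. Among them, 6 of 23 other hypoxia-induced genes were higher in STAT6 MUT, including FAM162A (0.23), and HILPDA, a lipid droplet protein, was lower (−0.46). Of 6 other HIF regulators the coactivators CREBBP (0.42) and EP300 (0.22) were higher. Of 13 other genes of glycolysis and glucose uptake FBP1, which runs the phosphofructokinase step backwards, was higher (0.19), of 7 pentose phosphate genes TKT was lower (−0.14), of 10 genes of pyruvate entry DLD was lower (−0.18), and of 3 MondoA genes TXNIP was higher (0.16). Of 11 genes of the amino acid and stress response PHGDH (0.38) and SHMT2 (0.24), which make serine from a glycolytic intermediate and glycine from serine, were higher. MYC, of 6 in its list, was lower (−0.17), as was HSPA8 of 8 heat shock genes (−0.12) and ACTB of 11 housekeeping genes (−0.14). Of 10 B cell markers 2 were higher, BCL6 (0.40) and MME (0.28), and 5 lower, CD22 (−0.33) first. EPCAM was lower (−1.16), and the summed stromal and epithelial markers ranged from 77.1 to 126 CPM in STAT6 WT and from 13.9 to 87.3 CPM in STAT6 MUT libraries. The part of these marker differences in the values of the glycolytic genes was not tested.

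Within single time points, fewer genes passed. At 2 h, 8 of 28 tested genes differed, 6 higher and 2 lower in STAT6 MUT (8.59% of all genes tested, 3.92% higher and 4.67% lower). At 4 h 5 differed, all higher (3.97%, with 1.96% higher and 2.01% lower), and at 8 h 3 differed, all higher (1.44%, with 0.852% higher and 0.591% lower). ALDOC and ENO1 passed at each time point, but ENO1 lost its call in 11 of 23 alternative settings at 4 h and in 13 of 23 at 8 h, and ALDOC in 1 of 23 at 2 h, 1 at 4 h and 2 at 8 h. At 2 h GAPDH (0.18), HIF1A (0.33), BNIP3L (0.32) and BNIP3 (0.26) were also higher, at 4 h BNIP3 (0.35), HIF1A (0.41) and PGK1 (0.19), and at 8 h PGK1 (0.34). The nearest to the threshold were PFKL at 2 h (0.23, adjusted p = 0.0536, edgeR), PFKFB3 at 4 h (−0.32, adjusted p = 0.0574, edgeR) and PFKFB4 at 8 h (0.79 ± 0.22, adjusted p = 0.0562, edgeR). PFKFB4 had 3.95 to 14.0 CPM in STAT6 WT and 10.1 to 23.5 CPM in STAT6 MUT at 8 h, on 2 to 18 UMIs, and 5 mutant libraries lay above every other (exact permutation p = 0.00119). ENO1 at 2 h was the 1 call of 8 kept in all 23 settings, against 0 of 5 calls at 4 h and 0 of 3 at 8 h. Without the libraries of low total 3 genes passed at 4 h and 1 at 8 h, and with no count filter 3 passed at 4 h. Without the N421K line the counts at 2 and 4 h were 4 and 1, and without the D419G line 3 genes passed at 4 h and 1 at 8 h. Under scaling by total counts alone, the 8 calls at 2 h became 5 higher and 3 lower. With replicate number as a block fewer genes passed at each time point than in the main fit, as given at the end.

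DDIT4 and PFKFB3 were lower in STAT6 MUT at 2 h. DDIT4, which restrains mTORC1 and is induced by hypoxia and by other stresses, had 34.6 to 53.2 CPM (median 43.6) in STAT6 WT and 21.2 to 38.1 CPM (median 28.1) in STAT6 MUT at 2 h, and 7 of 9 mutant libraries lay below every STAT6 WT library (log2 fold change −0.55 ± 0.13, adjusted p = 0.00225, edgeR; exact permutation p = 0.00074). At 8 h its ranges were 26.4 to 39.5 CPM (median 30.9) and 20.0 to 40.9 CPM (median 33.6; exact permutation p = 0.788). The difference between genotypes moved up by 0.48 on the log2 scale at 4 h and by 0.69 at 8 h relative to 2 h, and DDIT4 was the 1 gene of 29 to pass the test of this interaction (adjusted p = 0.0474, edgeR), against 0.957% of all genes tested. That call was lost in 9 of 19 alternative settings, with adjusted p between 0.0183 and 0.32 over all 19, among them DESeq2 (0.0868), no filter (0.139) and the omission of replicate number 1 (0.32), 2 (0.053), 3 (0.282), 5 (0.0998), 6 (0.0612), 7 (0.0544) or 9 (0.0757). PFKFB3 had 58.6 to 111 CPM (median 75.9) and 46.2 to 93.0 CPM (median 52.7) at 2 h (log2 fold change −0.46 ± 0.11, adjusted p = 0.00386, edgeR). At 8 h its medians were 87.0 and 91.9 CPM, and its interaction did not pass (adjusted p = 0.115, edgeR).

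The mutant lines were then compared with STAT6 WT one at a time over all time points, with the 27 STAT6 WT libraries shared by the 3 comparisons. For D419G 11 of 29 genes differed, 10 higher and 1 lower (5.38% of all genes tested, 3.16% higher and 2.22% lower). For D419N 7 differed, all higher (2.75%, with 1.49% higher and 1.26% lower), and for N421K 11, 7 higher and 4 lower (13.7%, with 6.76% higher and 6.92% lower). ENO1, PGK1 and HIF1A were higher in each line, at 0.24, 0.20 and 0.17 for ENO1, 0.28, 0.24 and 0.17 for PGK1, and 0.29, 0.37 and 0.29 for HIF1A in D419G, D419N and N421K. ENO1 kept its call in all 19 alternative settings in each line, whereas PGK1 lost its call in 3 settings for D419N and 4 for N421K, and HIF1A lost it in 5 for D419G and in 1 each for D419N and N421K. Of all calls, 4 of 11 for D419G, 1 of 7 for D419N and 4 of 11 for N421K were kept in all 19. In D419G, ALDOC (0.64), PFKL (0.32), GAPDH (0.17), GPI (0.25), BNIP3L (0.31), ALDOA (0.13) and SLC16A3 (0.66) were also higher and HK2 was lower (−0.41). In D419N, LDHA (0.23), GPI (0.24), TPI1 (0.18) and PGAM1 (0.24) were higher, and ALDOC was nearest to the threshold (0.20 ± 0.06, adjusted p = 0.0503, edgeR). In N421K, ALDOC (0.40), BNIP3L (0.30), PFKFB4 (0.50) and BNIP3 (0.23) were higher, and HK1 (−0.42), PFKM (−0.47), SLC16A1 (−0.22) and PFKFB3 (−0.30) were lower. The D419G count was 5 with no count filter, 6 without the 8 libraries of low total or without replicate number 3 and 7 without number 2, the D419N count was 2 without number 2, and the N421K count was 6 without number 3.

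A test for any difference among the 3 lines was passed by 4 of the 29 genes (2.39% of all genes tested), namely ALDOC, HK1, PFKM and PFKL. ALDOC stood at 279 ± 43.2 CPM in D419G, 214 ± 51.0 CPM in D419N and 233 ± 51.1 CPM in N421K (SD, n = 9 each over 3 time points), against 181 ± 40.0 CPM (n = 27) in STAT6 WT (adjusted p = 3.96e-05 among the lines, edgeR). Relative to D419G it was lower by 0.44 in D419N and by 0.24 in N421K on the log2 scale. The SDs include the fall with time.

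HK1 stood at 56.8 ± 8.82, 61.4 ± 14.3 and 41.7 ± 10.4 CPM in D419G, D419N and N421K, against 56.3 ± 7.55 CPM in STAT6 WT (adjusted p = 0.000913, edgeR). PFKM stood at 35.2 ± 8.13, 38.4 ± 9.92 and 27.0 ± 6.41 CPM, against 36.9 ± 6.83 CPM (adjusted p = 0.0189, edgeR). For both genes N421K was the low line. PFKL stood at 157 ± 29.8, 125 ± 26.5 and 129.6 ± 17.1 CPM, against 126 ± 16.2 CPM (adjusted p = 0.0296, edgeR), so that D419G was the high line. LDHA was nearest to the threshold among the rest (adjusted p = 0.0721, edgeR). Without replicate number 1, 0 of the 4 genes passed (adjusted p = 0.101 for ALDOC and 0.296 for HK1), and without number 2 ALDOC and HK1 passed. EPCAM was lower in N421K than in STAT6 WT by 2.33 on the log2 scale, and its part in the values of HK1 and PFKM was not tested.

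**Figure D5:**
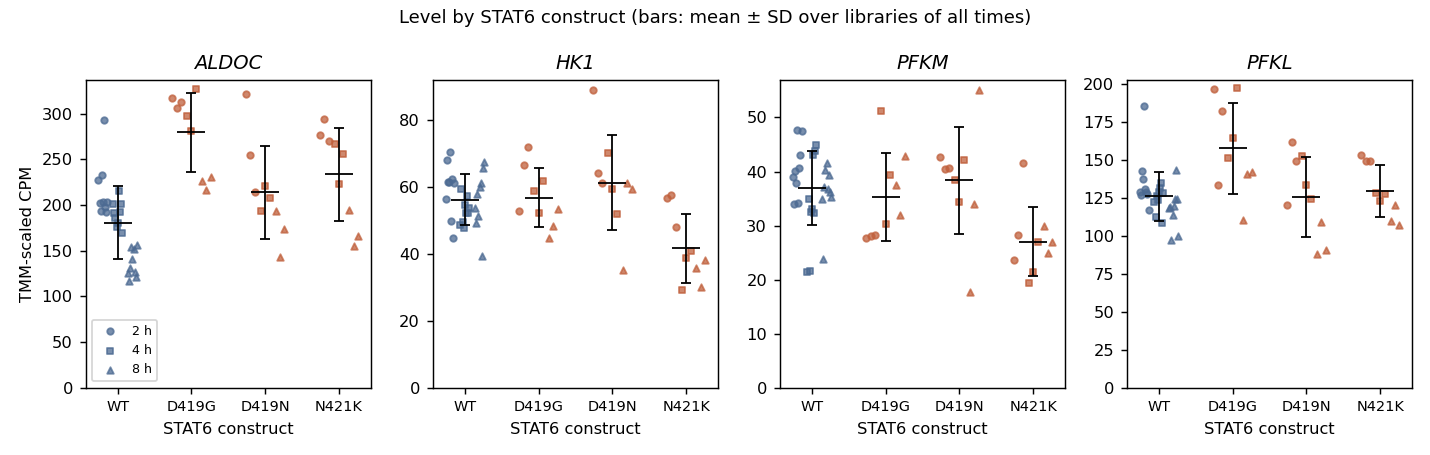
Level (TMM-scaled CPM, linear axis from 0) of ALDOC, HK1, PFKM and PFKL in each library by STAT6 construct, with circles for 2 h, squares for 4 h and triangles for 8 h, and bars for the mean ± SD of 27 STAT6 WT or 9 mutant libraries. N421K is low for HK1 (41.7 CPM) and PFKM (27.0 CPM), and D419G is high for ALDOC (279 CPM) and PFKL (157 CPM).

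Some of these genes share sequence or position with others, and the use of strand in counting is not given in the sources used here. Rows named as pseudogenes held 55.0% as many UMIs as BNIP3, 35.6% as many as PGAM1, 9.00% as many as TPI1 and 4.39% as many as GAPDH (GAPDH-DT included). The pseudogene HK2P1 and the row HK2-DT together held 78.0% as many UMIs as HK2, and their separate shares are not given here. Reads of these genes may therefore have been divided. With the pseudogene UMIs added to the parent, BNIP3, PGAM1, TPI1 and GAPDH remained lower at 8 h than at 2 h, and PFKL and PGAM1 no longer differed between genotypes over all time points. Exons of PFKM, SLC16A3, SLC16A1 and MIF overlap on the opposite strand with SENP1, CSNK1D, SLC16A1-AS1 and MIF-AS1, which had 75.4%, 938%, 29.6% and 22.3% as many UMIs. The counts of these 4 genes are therefore uncertain.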

How the data were processed

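RNA of OCI-Ly1 cells was made into 54 prime-seq libraries, which tag the 3′ end of each mRNA with a UMI. With the Drop-seq pipeline the authors turned the reads into UMI counts for each gene and well, and they deposited these counts as whole numbers, with 1 column per library. Per the labels' processing notes the genome build was hg38. For the aligner, the annotation and strand, nothing is given in the sources used here. Of 31835 identifiers 30959 were matched to a symbol, 0 value columns were left unused, and groups came from the labels.

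From these counts, edgeR 4.0.16 (R 4.3.3) was run with TMM scaling, filterByExpr, the quasi-likelihood test and Benjamini-Hochberg adjustment over all genes tested, with calls at an adjusted p under 0.05. The models were time point and genotype over all libraries, genotype within each time point, time point and line, and the 6 groups for the interaction and the changes within a genotype. The study's methods name DESeq2 with pooled mutants, and DESeq2 1.42.0 was an alternative here, as was limma-voom (limma 3.58.1). Log2 CPM for the exact permutation tests (two-sided) used a prior count of 2. Other alternatives changed the scaling, the filter (none, or a mean count of at least 10), plate row or line as covariates, replicate number as a block, and the libraries included. After the data were seen, alternatives with pseudogene UMIs added to their parents and with line and number as a block for the interaction were added. The fitting steps were tested on simulated counts.

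The 36 genes and the lists were chosen with earlier results of these data known. All genes called in a comparison are named, except for the changes within a genotype, where only some are. The 6 with the smallest p or fewer are given with their levels. For most comparisons the gene nearest to the threshold among those that did not pass is named. For the lists, the 2 genes with the smallest p or others called are named for 8 h against 2 h and for genotype over all times. Promoter sequences are RefSeq's for GRCh38.p14. Gene overlaps were read from an annotation of that genome, which may differ from the authors' annotation. Plots were drawn with matplotlib 3.10.9.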

Additional observations from a re-analysis of the deposited data

Results flagged for a closer look

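Some results differed between groups by a test of the difference itself. The difference of DDIT4 between STAT6 MUT and STAT6 WT changed with time (adjusted p = 0.0474, edgeR), and the 3 mutant lines differed for ALDOC (adjusted p = 3.96e-05, edgeR), HK1 (0.000913), PFKM (0.0189) and PFKL (0.0296). The DDIT4 call and all 4 calls among the lines were each lost in at least 1 alternative setting, as given above.

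In 14 of 174 groups of 9 libraries (29 genes, 2 genotypes, 3 time points), 1 library lay apart from the other 8 by a gap that was large for the range of its group, and chance alone gives such a gap in about 1 in 20 groups. In STAT6 WT at 2 h, the highest library was replicate 6 for ALDOC (gap over range 0.598; 293 CPM, the others up to 233 CPM) and LDHB (0.512), replicate 3 for PFKL (0.626; 185 CPM, the others up to 142 CPM) and replicate 5 for PFKP (0.553). In STAT6 WT at 4 h replicate 3 was highest for PKM (0.665), and at 8 h replicate 4 was lowest for PFKM (0.623). In STAT6 MUT at 2 h, the highest library was D419G replicate 2 for ENO1 (0.591; 3148 CPM, the others up to 2764 CPM) and PDK1 (0.537), D419G replicate 3 for P4HA1 (0.501), and D419N replicate 2 for LDHB (0.548) and PFKFB3 (0.588; 93.0 CPM, the others up to 65.5 CPM). In STAT6 MUT at 4 h D419G replicate 3 was highest for GPI (0.566; 529 CPM, the others up to 395 CPM) and lowest for PGAM1 (0.622; 50.7 CPM, the others from 106 CPM), and at 8 h D419N replicate 3 was lowest for PFKFB3 (0.549; 47.0 CPM, the others from 74.5 CPM). Several of these libraries had under 0.5 of the median total. They were STAT6 WT replicate 6, D419G replicate 2 and D419N replicate 2 at 2 h, D419G replicate 3 at 4 h and D419N replicate 3 at 8 h. The low PGAM1 value rested on 9 UMIs and the low PFKFB3 value on 8 UMIs. The part of depth in these gaps was not tested.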

How the results depend on the processing

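Of 3168 values of called genes under alternatives, 361 lost their call and 0 were scored as reversed in direction. Direction was not scored for the interaction or for the difference among the lines. The alternatives fit largely the same libraries to genes already called, so that a reversal was unlikely from the start. The time comparisons were the most stable: for 8 h against 2 h, 20 to 23 genes were called over the omissions of a replicate number. Without one replicate number in turn, the counts ranged from 13 to 19 for 4 h against 2 h (20 in the full set), 10 to 16 for STAT6 MUT against STAT6 WT over all times (17), 6 to 12 at 2 h (8), 2 to 6 at 4 h (5), 1 to 4 at 8 h (3), 6 to 11 for D419G (11), 2 to 8 for D419N (7), 6 to 12 for N421K (11), 0 to 4 among the lines (4) and 0 to 1 for the interaction (1). With no count filter, which raises the number of genes tested, the counts were 9 over all times, 3 at 4 h, 5 for D419G and 0 for the interaction. Without the 8 libraries of low total they were 6 for D419G, 3 at 4 h and 1 at 8 h. Without the N421K line they were 11 over all times, 4 at 2 h and 1 at 4 h, and without the D419G line 3 at 4 h and 1 at 8 h. DESeq2 called 0 genes for the interaction. For these omissions fewer samples entered the fit, and for DESeq2 the cause was not tested.

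The deviations of same-numbered libraries were little correlated. Between mutant and STAT6 WT libraries of a number and time, r ran from −0.152 to 0.205 (over 0.1 in 2 of 27 pairs). Between time points of a line and number it ran from −0.125 to 0.264 (over 0.1 in 5 of 54). Counting noise in single libraries lowers such r, so that these values cannot tell whether the numbers pair the samples. With replicate number as a block, in which STAT6 WT numbers 4 to 9 have no mutant partner, 6 genes were called over all times, 2 at 2 h, 1 at 4 h, 0 at 8 h, 3 for D419N and 7 for N421K, and among all genes 607 in place of 1237, 200 of 743, 61 of 342, 19 of 127, 146 of 267 and 964 of 1328. With line and number as a block, 23 genes were called for 8 h against 2 h. Under total counts alone, the genes of the whole table called from 2 to 4 h divided into 1393 higher and 656 lower (1071 and 967 with TMM), those within STAT6 MUT into 2198 and 1219 (1588 and 1621), and those between genotypes at 2 h into 264 and 503 (339 and 404). Depth limits genes of few UMIs most, such as SLC16A3 (1 to 41 per library), PFKFB4 (2 to 68) and PFKM (3 to 115).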
